A study of Homo sapiens with 16 samples.

Results

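The proteasome subunit genes were taken as the protein-coding RefSeq genes of hg38 whose symbol is PSMA, PSMB, PSMC, PSMD, PSME, PSMF or PSMG followed by a digit. Of 19974 protein-coding genes on chromosomes 1 to 22 and X, 48 met this rule after 2 genes on chromosome 6 between 28.4 and 33.5 Mb, PSMB8 and PSMB9, had been left out. The symbols also take in PSMC3IP and PSME3IP1, which are named after a proteasome subunit that their products bind and are not subunits themselves; 46 genes remain without them. Histone marks were mapped by chromatin immunoprecipitation and sequencing in Toledo cells, an established line from a diffuse large B-cell lymphoma grown in suspension. The treated cells received the CARM1 inhibitor TP-064 at 5 uM for 6 days and the controls received the solvent DMSO for the same time. CARM1 is an arginine methyltransferase that modifies histones and transcriptional coactivators. Each of the 3 marks had 2 DMSO and 2 inhibitor libraries, which gives 12 peak lists, and the 4 input libraries were not used here. The labels do not tell whether replicate libraries are separate cultures or repeats of a single one, so p-values cover just the differences among these libraries, possibly technical ones. Lane 3 carried the DMSO libraries and lane 4 those of the inhibitor, by their labels, and the effect of treatment cannot be told apart from that of lane.

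The proteasome degrades proteins tagged with ubiquitin. Its core particle is a barrel of PSMA and PSMB subunits, with the proteolytic sites on PSMB5, PSMB6 and PSMB7. The regulatory particle, built from PSMC ATPases and PSMD subunits, recognises, unfolds and feeds in the substrate, while PSME proteins form other caps and PSMG proteins help to assemble the core. Subunits are needed in fixed proportions, and in mammalian cells their genes are raised together by NFE2L1, a transcription factor that is activated when proteasome capacity falls and binds antioxidant response elements. H3K4me3 marks promoters, H3K27ac marks active promoters and enhancers, and H3K4me1 marks mainly enhancers and the flanks of promoters.

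The lists hold peak positions only, with no score, height or read number, so depth is unknown, and a gene without a peak may still carry the mark at a level the caller did not pass. A gene was said to carry a mark in a library when a peak overlapped by at least 1 bp the 2 kb on either side of either gene end. The H3K4me3 lists held 10048 to 12476 peaks and the H3K27ac lists 4016 to 7885. The H3K4me1 lists were the most uneven, with 25058 and 9673 peaks in the DMSO libraries and 4094 and 4242 in the inhibitor libraries. B-cell markers carried H3K4me3 in all 4 libraries at 6 of 7 genes (all but CD22), while none of 5 T-cell, 5 myeloid and 4 epithelial markers carried it in any library. No test was made over the members, which are not replicates of a treatment, and 2 libraries against 2 cannot give an exact permutation p below 0.333.

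H3K4me3 lay at 42 of the 48 genes, and at those 42 in every library of both treatments. Over all protein-coding genes 49.0% carried H3K4me3 in all 4 libraries, against 87.5% of the members. Loss, meaning a peak in both DMSO libraries and in neither inhibitor library, was seen at 0 of the 42 members and at 5.67% of the genes with H3K4me3 in both DMSO libraries. H3K27ac was found at fewer members and in uneven numbers, 25 and 13 in the DMSO libraries and 8 and 7 in the inhibitor libraries. H3K4me1 was found at 26 and 6 members with DMSO, at 1 in inhibitor replicate 1 and at 0 in inhibitor replicate 2. For all genes with H3K4me3 in all 4 libraries, the H3K27ac shares in the same order were 46.7%, 23.8%, 20.5% and 17.7%, and the H3K4me1 shares 58.2%, 18.2%, 7.21% and 7.15%. The 2 DMSO libraries thus differed from each other by more H3K27ac-bearing members than DMSO replicate 2 differed from either inhibitor library.

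**Figure D1:**
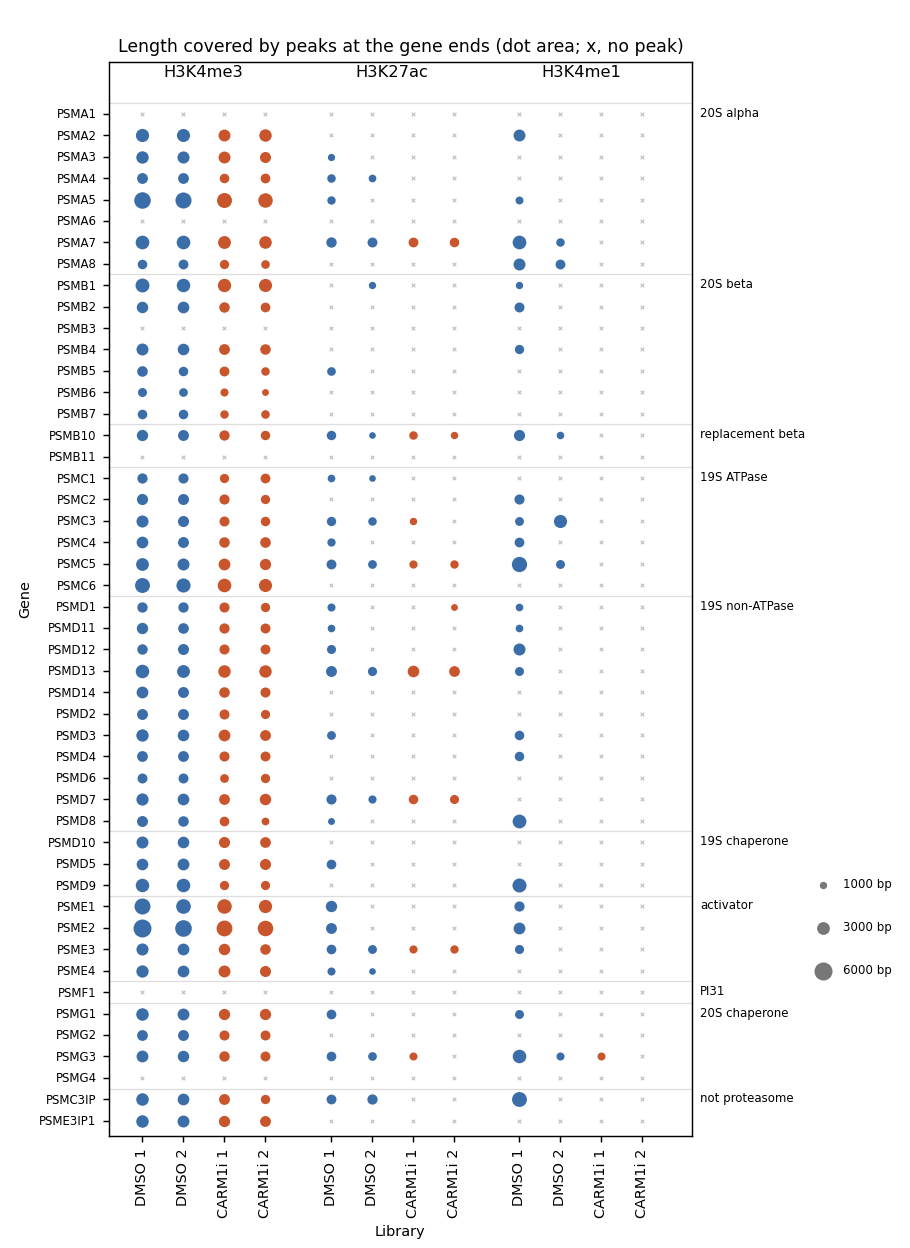
Dot area gives the length in bp covered by peaks at the ends of each of the 48 genes (rows, grouped by role) in each of the 12 libraries (columns, blue DMSO, orange inhibitor), and a cross marks no peak. The H3K4me3 columns are filled at 42 genes in every library, whereas the H3K27ac and H3K4me1 columns thin out from DMSO replicate 1 onward.

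**Figure D2:**
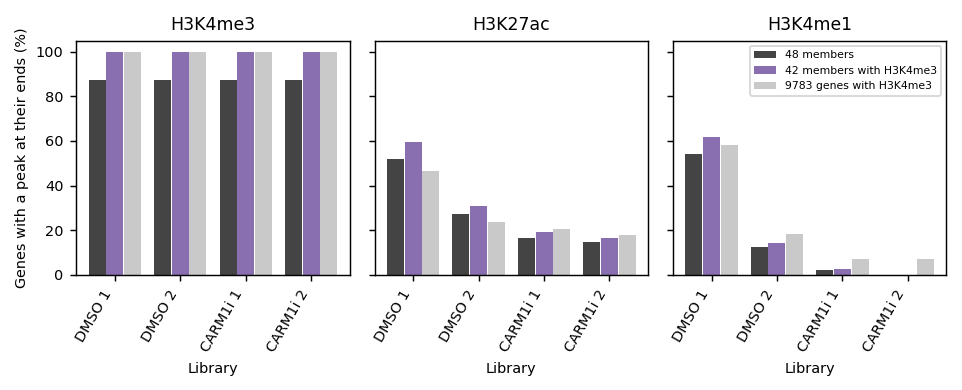
Bars give the percentage of genes with a peak at their ends in each library, for the 48 members, the 42 members with H3K4me3 in all 4 libraries and the 9783 genes with H3K4me3 in all 4 libraries. The H3K4me3 bars of the last 2 sets are at 100 by definition.

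The 6 genes without H3K4me3 at their ends were the core subunits PSMA1, PSMA6 and PSMB3, the thymus-specific catalytic subunit PSMB11, the regulator PSMF1 and the assembly chaperone PSMG4. At 4 of them the mark lay inside the annotated gene, over a RefSeq transcript start far from the outer gene boundary. For PSMA1 that start is at 14520386 on chromosome 11, 123276 bp from the boundary, and it lay in an H3K4me3 peak in all 4 libraries. The PSMA6 start at 35292317 on chromosome 14 is 13759 bp inside the gene. PSMF1 has its inner start 5339 bp and PSMG4 4543 bp from the boundary, and both were likewise covered in all 4 libraries. H3K27ac also covered the inner start of PSMA1 in all 4 libraries, and that of PSMA6 in DMSO replicate 1 and both inhibitor libraries. It covered that of PSMG4 in no library. Peaks at inner starts do not enter the counts at gene ends below. With peaks counted anywhere in the gene, 46 of 48 members carried H3K4me3 in every library. PSMB11 was 1 of the other 2, and the nearest H3K4me3 peak was 6487 to 6829 bp from its start. PSMB3, a constitutive core subunit, was the other, and its start was 98514 to 99180 bp from the nearest H3K4me3 peak. It lies in a stretch of chromosome 17 from 37643494 to 38843788 in which none of the 12 lists has a peak and which holds 20 protein-coding genes. Whether reads there were removed before peak calling is unknown, so the missing peak at PSMB3 does not show that the mark is absent.

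H3K27ac was present in both DMSO libraries at 12 of the 42 members with H3K4me3 (28.6%), and at 22.6% of all genes with H3K4me3 in all 4 libraries. Among those 12 members, 6 kept H3K27ac in all 4 libraries, 4 lost it and 2 (PSMC3 and PSMG3) kept it in inhibitor replicate 1 but not in replicate 2. The background shares among genes with H3K27ac in both DMSO libraries were 48.5% kept and 28.0% lost, beside 6 and 4 of the 12 members. The pattern of PSMC3 and PSMG3 was found at 345 of these 2329 genes. No member gained H3K27ac, and the share of all genes that did is not given here. A further 12 members (28.6% of 42, against 17.6% of genes with H3K4me3) had H3K27ac in DMSO replicate 1 only. At 16 (38.1%, against 50.3%) no library had it at the gene ends. Of these 16, PSMD14 and PSMG2 carried it in all 4 libraries with peaks counted anywhere in the gene. Leaving out DMSO replicate 2 raises the number of lost members from 4 to 16, because the members seen only in DMSO replicate 1 then count as lost. Over all genes, 651 were lost with all libraries in use, and 1832 others had H3K27ac in DMSO replicate 1 only. With each list of a mark cut to its widest peaks so that all 4 had equal length, 1 member, PSMC3IP, remained lost and 4 remained kept. Shares over all genes are not given for these cut lists.

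Among the core subunits, PSMA7, an alpha-ring subunit, kept H3K27ac at 1989 and 1826 bp with DMSO, and after the inhibitor 1779 and 1685 bp. Both inhibitor values were below both DMSO values, by a gap smaller than the spread within either treatment. PSMB10, the trypsin-like subunit that replaces PSMB7 in the immunoproteasome, had 1649 and 811 bp with DMSO, and after the inhibitor 1338 and 1017 bp, so its groups overlapped. PSMA4, another alpha-ring subunit, was covered over 1337 and 1099 bp in the DMSO libraries and had no H3K27ac peak in either inhibitor library. The chymotrypsin-like subunit PSMB5 had 1393 bp in DMSO replicate 1 alone. PSMA3 (972 bp) and PSMA5 (1297 bp) were also covered in that library only, and the PSMA5 peak lay at the 3′ end of the gene, not at its start. PSMB1 had a peak of 988 bp in DMSO replicate 2 alone, the only member with this pattern. Neither PSMB6 nor PSMB7, which carry the other proteolytic sites, had H3K27ac at its ends in any library.

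In the regulatory particle, the ATPase gene PSMC5 kept H3K27ac at 1801 and 1422 bp with DMSO, and after the inhibitor 1253 and 1299 bp. PSMC1, which encodes another ATPase of the ring, had 1090 and 816 bp with DMSO and none with the inhibitor. PSMC3 kept 1019 bp in inhibitor replicate 1, beside 1615 and 1339 bp with DMSO, and had no peak in inhibitor replicate 2. The fourth ATPase gene with the mark, PSMC4, had 1266 bp in DMSO replicate 1 only. The lid subunits PSMD13 and PSMD7 kept the mark, with values that overlapped between the treatments. PSMD13 had 2208 and 1546 bp with DMSO, and after the inhibitor 2496 and 2130 bp, and PSMD7 had 1893 and 1241 bp against 1667 and 1522 bp. PSMD1, the large scaffold subunit of the base, was covered over 1206 bp in DMSO replicate 1 and 862 bp in inhibitor replicate 2. PSMD12 (1519 bp), PSMD3 (1437 bp), PSMD11 (1077 bp) and PSMD8 (887 bp) were covered in DMSO replicate 1 only, as was the base assembly chaperone PSMD5 (1735 bp).

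All 4 genes of the alternative caps carried H3K27ac in DMSO replicate 1, and they then parted. PSME3, which forms the nuclear cap, kept it at 1730 and 1460 bp with DMSO, and after the inhibitor 1236 and 1279 bp, both inhibitor values below both DMSO values. PSME4, the large cap linked to the turnover of acetylated histones, had 1210 and 820 bp with DMSO and none with the inhibitor. The interferon-induced pair PSME1 (2390 bp) and PSME2 (2192 bp) was covered in DMSO replicate 1 only, and part of both values is a single peak between the genes, at the 3′ end of each. Of the core assembly chaperones, PSMG3 had 1726, 1409 and 1199 bp in DMSO replicates 1 and 2 and inhibitor replicate 1 and no peak in inhibitor replicate 2, and PSMG1 had 1752 bp in DMSO replicate 1 only. The widest H3K27ac among the lost members was at PSMC3IP, 1778 and 1940 bp with DMSO and none with the inhibitor. Its product serves meiotic recombination and is not part of the proteasome, so 3 of the 4 lost members encode subunits or caps.

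Where H3K27ac was kept, its covered length was fitted with limma over the 1130 genes with the mark in all 4 libraries, and after Benjamini-Hochberg adjustment 0 genes passed 0.05, while 92 had an unadjusted p below 0.05. None of the 6 members was among these 92. The log2 difference, inhibitor minus DMSO, was 0.32 (SE 0.29, adjusted p = 0.757) for PSMD13 and -0.34 (SE 0.26, adjusted p = 0.706) for PSME3, the ends of the members' range.

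The bases before the start of the 4 lost members are shown because these promoters had an H3K27ac peak called in both DMSO libraries and in neither inhibitor library. They come from the RefSeq promoter table for GRCh38.p14 (hg38), run 5′ to 3′ on the gene's strand and end at the base before the outer gene start. For PSME4 they are cut where the neighbour ACYP2 starts. Capitals mark matches on either strand to the motif letters given further on for antioxidant response element, CCAAT, GC box and ETS core. PSMC3IP is chr17:42577832-42578081 (minus strand), PSMA4 chr15:78540155-78540404 (plus), PSME4 chr2:53970994-53971112 (minus) and PSMC1 chr14:90256303-90256552 (plus).
PSMC3IP: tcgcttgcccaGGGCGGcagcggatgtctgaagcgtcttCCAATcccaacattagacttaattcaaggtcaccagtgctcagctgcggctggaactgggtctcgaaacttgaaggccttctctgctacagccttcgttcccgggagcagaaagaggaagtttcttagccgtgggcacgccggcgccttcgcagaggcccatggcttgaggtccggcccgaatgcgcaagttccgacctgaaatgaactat
PSMA4: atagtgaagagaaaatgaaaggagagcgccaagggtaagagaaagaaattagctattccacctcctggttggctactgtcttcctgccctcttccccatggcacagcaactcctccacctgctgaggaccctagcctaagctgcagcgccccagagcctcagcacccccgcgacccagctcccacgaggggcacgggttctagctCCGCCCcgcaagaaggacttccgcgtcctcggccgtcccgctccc
PSME4: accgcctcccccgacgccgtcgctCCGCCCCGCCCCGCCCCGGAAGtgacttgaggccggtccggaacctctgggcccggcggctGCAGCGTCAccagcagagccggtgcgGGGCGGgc
PSMC1: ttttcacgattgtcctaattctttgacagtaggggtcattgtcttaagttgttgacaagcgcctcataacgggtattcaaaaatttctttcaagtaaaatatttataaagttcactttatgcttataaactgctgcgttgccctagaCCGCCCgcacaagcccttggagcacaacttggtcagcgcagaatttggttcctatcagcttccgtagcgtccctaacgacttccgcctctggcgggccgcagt

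Each of the 4 stretches holds at least 1 GC box, and no other motif of those searched is in all 4. In PSME4 the capitals run together because 3 GC boxes and an ETS core overlap, the leftmost beginning 95 bases before the start (position -95, counted back from the start). The PSMC1 stretch has a single GC box at position -103 and that of PSMA4 a single one at -45.

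The H3K27ac peaks of the members lay on, and mostly inside, their H3K4me3 peaks. In each library every member with H3K27ac had it overlapping H3K4me3, and it was fully inside at 22 of 25, 13 of 13, 7 of 8 and 6 of 7 members in the order DMSO replicates 1 and 2, inhibitor replicates 1 and 2. The overlap was not counted over all genes, so it cannot be called particular to the members. At PSMD13 in the inhibitor libraries it ran beyond the H3K4me3 peak on the downstream side, with 82.6% and 79.7% of its bases inside, the lowest share in each. In DMSO replicate 1 the H3K27ac peaks covered a RefSeq start at 20 of the 23 members whose strand is known, against 87.6% of genes with H3K27ac and H3K4me3. The exceptions were PSMA5, with its peak at the 3′ end, and PSMC4 and PSMD8, with a peak beside the start. Members with H3K27ac in both DMSO libraries had a median DMSO H3K4me3 length of 2634.5 bp (n = 12), those with it in DMSO replicate 1 only of the DMSO libraries 2544 bp (n = 13) and those with it in neither 2326.25 bp (n = 16). Over all genes the same medians were 3112, 2644 and 2146.5 bp, a wider span.

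**Figure D3:**
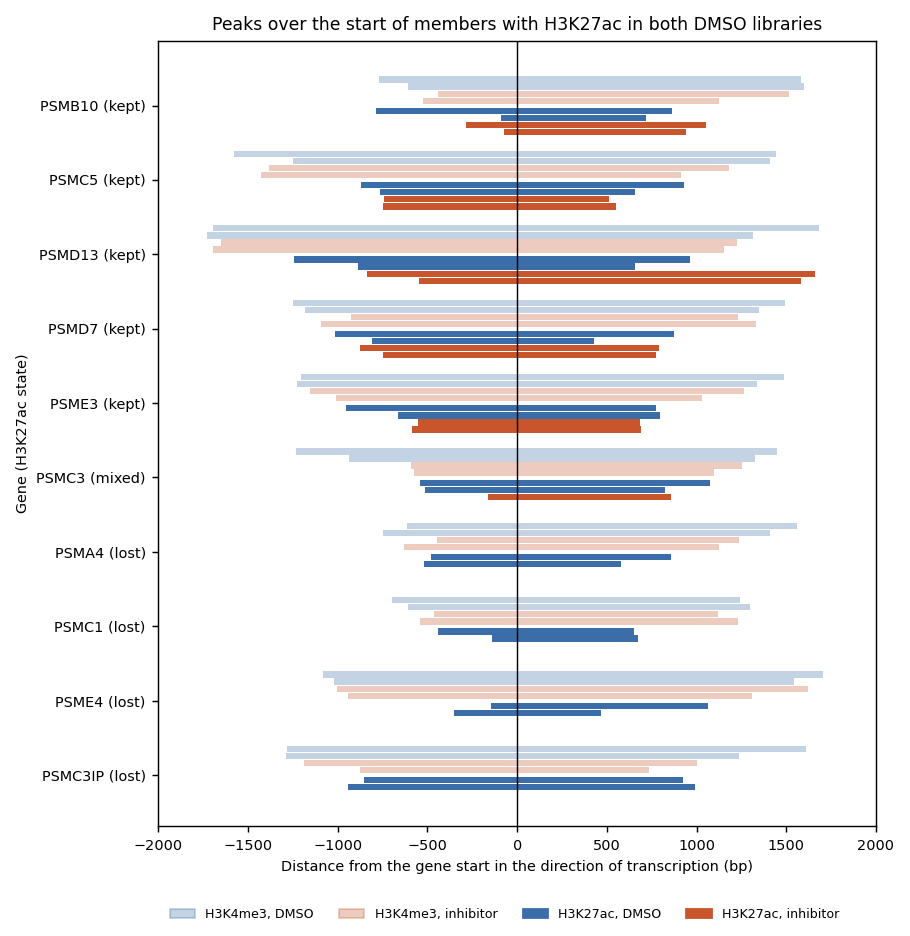
Horizontal bars show, for the 10 members with known strand and H3K27ac in both DMSO libraries, the H3K4me3 peak (pale) and H3K27ac peak (dark) over the gene start in the 4 libraries, on an axis of distance from the start in bp, positive in the direction of transcription. H3K27ac bars of the inhibitor libraries (orange) are missing at PSMA4, PSMC1, PSME4 and PSMC3IP, where the pale H3K4me3 bars remain.

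Both inhibitor values of H3K4me3 covered length lay below both DMSO values at 39 of the 42 members (92.9%), against 83.4% of all 9783 genes with H3K4me3 in all 4 libraries. The exceptions, PSMB5, PSMD3 and PSME4, overlapped between treatments. The median log2 difference in covered length, inhibitor minus DMSO, was -0.24 over the members and -0.27 over all genes, and all 42 members were below 0, from -1.10 to -0.10. Peaks of the whole lists were narrower too, with a median width of 2166.5 and 2075 bp in the DMSO libraries and 1899 and 1764 bp in the inhibitor libraries. Once each library was centred on its median, 15 of 42 members were below 0 and the members' median was 0.05, beside 0.02 for all genes. Peak width is not signal height, and no height was given.

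In the limma fit, 4 of the 42 members (9.52%) were shorter at an adjusted p below 0.05, against 18.6% of all genes fitted. PSMD9, a chaperone of base assembly, had 3345 and 3382 bp with DMSO, and after the inhibitor 1566 and 1562 bp (log2 -1.10, SE 0.10, adjusted p = 0.0015, limma). Of its DMSO length, 1210 and 1156 bp lay in a peak at the 3′ end of the gene, chr12:121918096-121919305 in DMSO replicate 1 and chr12:121918177-121919332 in DMSO replicate 2, and neither inhibitor list has a peak there. That peak also lies at the boundary of CFAP251, the next gene. With only the widest peak of each gene, the PSMD9 difference was -0.48 (adjusted p = 0.0229). PSMC3 had 2685 and 2266 bp with DMSO, and after the inhibitor 1845 and 1670 bp (log2 -0.49, SE 0.12, adjusted p = 0.0379). PSMB2, a core beta subunit, had 2431 and 2521 bp against 2007 and 1742 bp (log2 -0.40, SE 0.11, adjusted p = 0.0475). PSMG3 had 2579 and 2434 bp against 2017 and 1815 bp (log2 -0.39, SE 0.11, adjusted p = 0.0476). The calls for PSMC3, PSMB2 and PSMG3 were lost after centring, with bases inside the windows only, with log2(width + 200 bp), without DMSO replicate 1 and without inhibitor replicate 2. Those for PSMB2 and PSMG3 were also lost without DMSO replicate 2 and with a 5 kb window. Centring brought the log2 differences to -0.20, -0.11 and -0.10, whereas without DMSO replicate 1 they were -0.37, -0.43 and -0.35. PSMD9 passed in every setting tried. Without inhibitor replicate 1 the number of shorter members rose from 4 to 13, as the share of all genes rose to 41.9%. It fell to 1 without DMSO replicate 1, where 6.07% of all genes were shorter, and to 1 without inhibitor replicate 2, where 9.40% were.

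**Figure D4:**
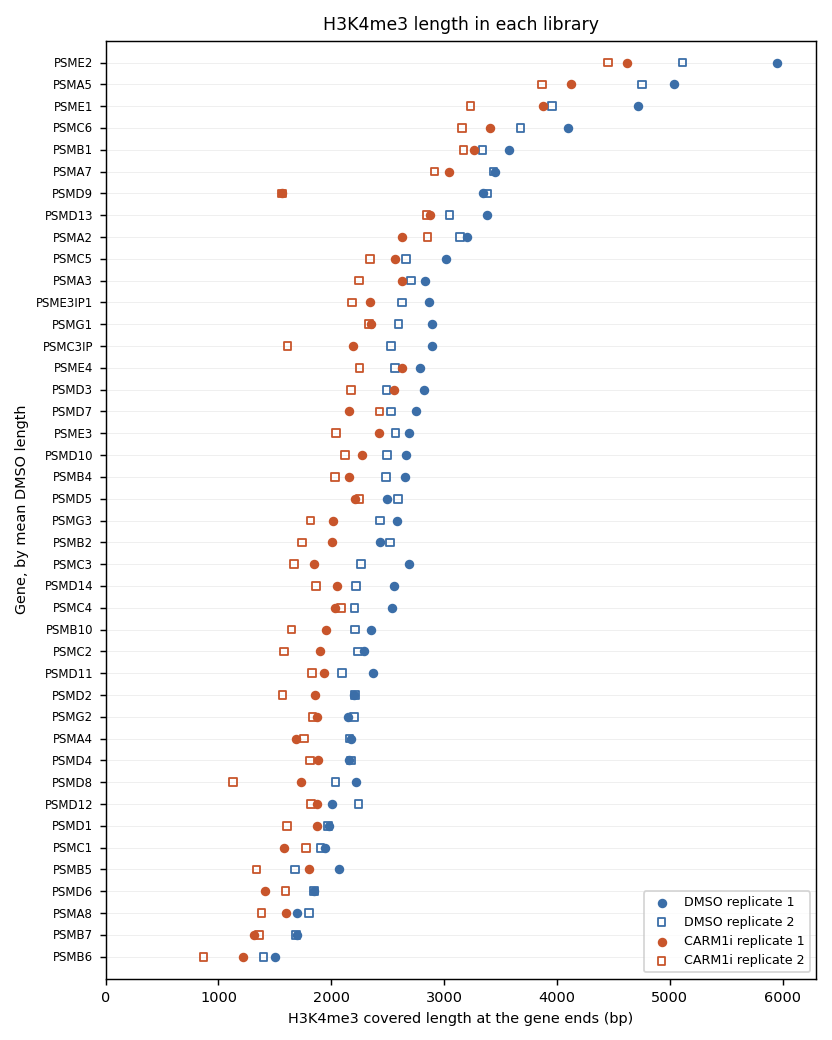
Each row is 1 of the 42 members with H3K4me3 in all 4 libraries, ordered by mean DMSO length, and the x axis is the H3K4me3 length at the gene ends in bp (filled circles replicate 1, open squares replicate 2, blue DMSO, orange inhibitor). Orange points lie left of blue ones at 39 members, and PSMD9 has the widest gap, from 3345 and 3382 bp to 1566 and 1562 bp.

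The 4 members with the longest H3K4me3 coverage had peaks at both ends. PSME2 had 5951 and 5112 bp with DMSO, and after the inhibitor 4620 and 4452 bp, and PSME1 had 4715 and 3958 bp against 3881 and 3235 bp. These 2 genes lie side by side on chromosome 14 and share the peak between them, which also lies at the ends of EMC9. PSMA5 had 5034 and 4755 bp against 4129 and 3869 bp, of which 2542 and 2383 bp with DMSO lay at its 3′ end. Part of this DMSO coverage is a peak shared with the ends of SORT1. At PSMC6, an ATPase gene (4096 and 3676 bp against 3410 and 3161 bp), 2052 and 1802 bp of the DMSO length lay at the 3′ end, in a peak that also lies at the end of STYX. PSMB1, with 3577 and 3341 bp against 3265 and 3172 bp, shares its peak with TBP. Among the 42 members with H3K4me3 in all 4 libraries, the shortest coverage was at PSMB6, with 1499 and 1398 bp with DMSO, and after the inhibitor 1218 and 866 bp. PSMB7 (1699 and 1687 bp against 1314 and 1359 bp), PSMA8, the testis form of an alpha subunit (1696 and 1800 bp against 1602 and 1381 bp), PSMD6 (1845 and 1846 bp against 1415 and 1595 bp) and PSMB5 (2069 and 1678 bp against 1803 and 1337 bp) followed. The 3 proteolytic subunits of the constitutive core were thus among the 5 shortest of these 42.

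Around the start, H3K4me3 reached farther downstream than upstream. This held with DMSO at 31 of the 40 members with a RefSeq start inside the peak in all 4 libraries (77.5%) and at 75.2% of 8077 genes. The members' median upstream reach was 1118 and 1028 bp in the DMSO libraries and 885.5 and 733 bp in the inhibitor libraries, and the downstream reach 1379.5 and 1293.5 bp against 1198.5 and 1094 bp. The upstream reach was shorter in both inhibitor libraries at 35 of 40 members (87.5%, against 70.4% of genes) and the downstream reach at 26 of 40 (65.0%, against 69.6%). The median change was -205.25 bp upstream and -179.75 bp downstream for the members, and -181.5 and -188 bp for all genes.

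H3K4me1 was called at 26 of the 42 members with H3K4me3 in DMSO replicate 1 (61.9%, against 58.2% of genes), but at 20 of these in that library only. Of the 6 members with H3K4me1 in both DMSO libraries, 5 had it in neither inhibitor library, PSMA7, PSMA8, PSMB10, PSMC3 and PSMC5, where the share over all genes was 55.4%. PSMG3 was the 1 member of 42 (2.38%, against 9.99% of genes) with H3K4me1 in an inhibitor library. It had 3393 and 1206 bp with DMSO, 1170 bp in inhibitor replicate 1 and none in inhibitor replicate 2. The DMSO values of the 5 lost members were also uneven: 3468 and 1329 bp at PSMA7, 2303 and 1052 bp at PSMB10 and 4297 and 1477 bp at PSMC5. At PSMC3 the peaks of the 2 DMSO libraries were different ones, 1451 bp near the start in replicate 1 and 3177 bp beyond the 3′ end in replicate 2. The peaks of PSMA8, 2646 and 1790 bp, lay at its 3′ end. In DMSO replicate 1 a start lay inside an H3K4me1 peak at 0 of 22 members with known strand, against 28.6% of genes with H3K4me1 and H3K4me3. PSMB10, for example, had 1 peak of 1253 bp downstream of its start and another of 1050 bp upstream. With the 4 H3K4me1 lists cut to equal length, 0 members were lost and 0 were kept, so the cut lists do not show that the mark persisted.

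Some peaks at the members also belong to a neighbour's ends. At 18 of 48 members a DMSO H3K4me3 peak also touched the ends of another gene, and 8 of the 42 with a known start had a gene starting in the opposite direction within 1 kb. Both counts were made for the members only, so neither can be read as particular to them. The closest pairs were PSMD13 with SIRT3 (45 bp apart), PSMC5 with FTSJ3 (58 bp) and PSME4 with ACYP2 (120 bp). HPD starts 179 bp from PSMD9, MRPL32 202 bp from PSMA2 and ATG4A 236 bp from PSMD10. RNF31 starts 265 bp from PSME2, and CEP76 lies at the same distance from an inner start of PSMG2. That inner start of PSMG2, 44304 bp from the gene boundary, had both H3K4me3 and H3K27ac in all 4 libraries, while its outer start lay inside an H3K4me3 peak in DMSO replicate 2 only. Counting only peaks at the ends of a single gene, PSMA4 and PSMC1 stayed lost for H3K27ac and PSMB10, PSMD7 and PSME3 stayed kept.

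Short motifs were looked up on both strands in the RefSeq promoter windows, 250 bases before to 50 bases after each start, which the table gives for 42 members. The antioxidant response element core TGACNNNGC was found at 14 members (33.3%), against 17.9% of 15812 genes and 19.3% of the 8202 with H3K4me3 in all 4 libraries. The ETS core CCGGAAG was found at 17 members (40.5%, against 16.5% and 25.2%) and the YY1 core AAGATGG at 9 (21.4%, against 7.9% and 10.5%). CCAAT was found at 21 of the 42 members, against 42.1% and 43.9%. The GC box GGGCGG was found at 29 (69.0%), more than in all genes (64.2%) and less than in those with H3K4me3 (78.2%). The nuclear respiratory factor 1 core GCATGCG was found at 2 members (4.76%, against 6.07% and 8.79%), and the cyclic AMP response element core TGACGTC at 0, against 5.43% and 6.97%. A match is a description of the letters and not evidence of binding, and genes with more listed starts had more chances of a match.

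**Figure D5:**
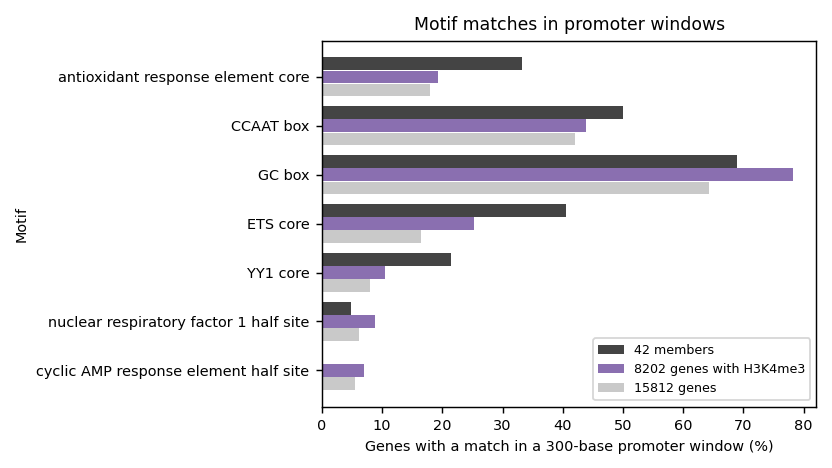
Bars give the percentage of genes with at least 1 match to each motif in a promoter window of 300 bases, for 42 members, 8202 genes with H3K4me3 in all 4 libraries and 15812 genes. The antioxidant response element, ETS and YY1 bars are longer for the members than for either gene set, and the GC box bar lies between the 2 sets.

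Antioxidant response element matches are shown for 4 regulatory-particle members, because this is the element through which NFE2L1 is known to act. Each stretch is on the gene's strand (hg38) with up to 10 bases on either side of the match in capitals, and a match written from GC to TCA lies on the opposite strand. PSMC4 is chr19:39971182-39971210 (plus strand), PSMC5 chr17:63827654-63827682 (plus), PSMD1 chr2:231056896-231056916 (plus) and PSMD12 chr17:67366724-67366752 (minus).
PSMC4: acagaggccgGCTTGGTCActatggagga
PSMC5: gaccggatctGCTGTGTCAgcgccgccct
PSMD1: aggaggcgacTGACTGAGCag
PSMD12: agacaaaaccTGACGCTGCaggctggagt

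The 4 matches differ in the bases between the fixed letters and in their place, from 165 bases before the start of PSMD12 (position -165) to 40 after that of PSMD1. The PSMC5 match is counted from an inner start at 63827721 (position -57). Of these genes PSMC5 kept H3K27ac in all 4 libraries, PSMC4 and PSMD12 had it in DMSO replicate 1 only, and PSMD1 in 1 library of each treatment. Among the 4 lost members, 2 also had a match: PSME4 at position -34, printed above, and PSMA4 at -126 from an inner start.

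The related list held 31 genes of the same pathway without a PSM symbol, and 30 of them had H3K4me3 in all 4 libraries. H3K27ac was kept at 8 of the 31 (among them ADRM1, NFE2L2, UCHL5 and VCP), lost at 2 (FBXO7 and RPS27A), mixed at 11 and absent at 10. NFE2L1 itself had H3K27ac over 2449 and 1942 bp with DMSO, none in inhibitor replicate 1 and 1049 bp in inhibitor replicate 2. The ubiquitin receptor gene ADRM1, which sits in the regulatory particle, had 1985 and 1042 bp with DMSO, and after the inhibitor 755 and 2053 bp, a spread wider within each treatment than between them. At FBXO7, whose product binds the proteasome regulator PSMF1, 1414 and 1023 bp of H3K27ac with DMSO had no counterpart with the inhibitor. At POMP, the core maturation factor, H3K27ac was in DMSO replicate 1 only (1410 bp). H3K4me1 was lost at ADRM1 and NFE2L1 and mixed at 13 of the 31 genes, and no related gene had it in an inhibitor library.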

How the data were processed

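The submitters' processing notes name Bowtie (1.1.2), MACS (1.4.2) and hg38, with no peak threshold, read filter or use of the inputs stated. Every ChIP library has its own list, which the authors deposited with 3 columns (chromosome, start, end), so the only measure is position and width in bp. Members and lists were chosen with earlier results of these data known. Genes, and the promoter sequences and strands of 42 members, came from the RefSeq tables of GRCh38.p14. The remaining 6 (PSMA7, PSMB1, PSMB6, PSMB7, PSMD4 and PSMG3) had no entry there. Genes with a peak in all 4 libraries of a mark were fitted for log2 summed peak width with limma 3.58.1 in R 4.3.3 (2 against 2 libraries, no pseudocount, two-sided, Benjamini-Hochberg over all genes, threshold 0.05), and states were counted without a test. Named with values were the members with lost, mixed or kept H3K27ac, no H3K4me3, the 5 longest and 5 shortest H3K4me3, a limma call, or H3K4me1 in an inhibitor library. The code was tested on simulated data. Alternatives covered windows, neighbours, list length, each library left out and the fit. Files of the 4 inputs were not used. Python 3.11.15 was used for the rest. The related list is given as counts, with only part of its genes named.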

Additional observations from a re-analysis of the deposited data

How the results depend on the processing

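Peak width stands in for a signal here, lists of unequal length limit what a missing peak shows, and each group has 2 libraries. The cause of the shifts below was not tested. Counts of lost, gained and kept genes under the alternatives are given for the members only, without shares over all genes. H3K27ac, lost at 4 members, was lost at 1 with lists of equal length and at 2 with peaks at 1 gene only. Leaving out each library gave 4 to 16 lost members. H3K27ac, kept at 6, was kept at 10 over whole genes (adding PSMA1, PSMA6, PSMD14 and PSMG2) and at 3 with peaks at 1 gene only. H3K4me3, kept at 42 and gained at 0, was kept at 26 with peaks at 1 gene only and gained at 1 (PSMB6) with equal lists. H3K4me1, lost at 5, was lost at 3 within 1 kb, at 2 at gene starts only, at 2 at every RefSeq start (chosen after seeing the data), at 2 with peaks at 1 gene only and at 0 with equal lists, and at 5 to 25 without each library. H3K4me1, kept at 0, was kept at 2 within 5 kb and at 0 to 1 without each library. The other counts of lost, gained and kept members stayed within 1.5 times.

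The 4 of 42 shorter H3K4me3 members (18.6% of all genes) became 1 after centring (2.28%), 1 with bases inside the windows (11.1%), 1 with log2(width + 200 bp) (9.07%) and 8 of 36 at gene starts only (24.0%). They numbered 1 to 13 without each library (6.07% to 41.9%), where the lone library of a group is assumed to vary like the others. No alternative called a member by H3K27ac length. Deviations of same-numbered libraries, taken across genes, correlated at 0.06 for H3K4me3, 0.10 for H3K27ac and -0.01 for H3K4me1. This correlation cannot show an offset shared by all genes, so it does not settle whether library numbers pair the samples. Replicate 2 had the lower median H3K4me3 peak width in both treatments (2075 against 2166.5 bp with DMSO, 1764 against 1899 bp with the inhibitor). With the replicate block, 19 of 42 members were shorter, as were 43.9% of all genes. Comparing within pair 1 and pair 2 of libraries paired by number, H3K27ac was lost at 17 and 7 members and gained at 0 and 1. H3K4me1 was lost at 25 and 6 and kept at 1 and 0.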
